A study of Mus musculus with 6 samples.

Results

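The miR-17 to miR-92a polycistron is a single noncoding transcript, Mir17hg, from which 6 miRNA hairpins are cut. Its mature products were followed in hearts under chronic pressure overload. The 10 rows of the count table that carry the names of these products were taken (miR-17-5p, miR-17-3p, miR-18a-5p, miR-18a-3p, miR-19a-3p, miR-20a-5p, miR-20a-3p, miR-19b-3p, miR-92a-1-5p and miR-92a-3p), out of 1966 mature miRNAs in all. Reads came from heart tissue of male wild-type (WT) mice, 3 with transverse aortic constriction (TAC, animals 29, 78 and 81), in which a narrowed aorta loads the left ventricle, and 3 sham-operated (animals 47, 68 and 69). Hearts were taken 8 weeks after surgery, with strain and age not given in the sources used here. Each numbered library was taken as 1 mouse, so p-values measure the spread between these libraries.

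The Mir17hg transcript is known as a MYC-activated oncogenic miRNA cluster that supports proliferation and survival. In the heart it has been linked to cardiomyocyte growth and division. The long primary transcript is cut by Drosha into hairpins and by Dicer into duplexes, of which one strand, the guide arm, is mostly kept, while the other, the passenger arm, is mostly degraded. Bases 2 to 8 of the guide, the seed, select the target mRNAs. The cluster holds 4 seed classes: miR-17 and miR-20a target cell cycle inhibitors such as Cdkn1a, miR-18a targets the matrix protein gene Ctgf, miR-92a targets the integrin gene Itga5, and miR-19a and miR-19b form the remaining class.

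The 6 guide arms are shown in the order in which they lie on the transcript, because their seeds set the classes and their near-identity bears on how reads were assigned. They are written 5′ to 3′ with the seed in capitals, from RefSeq on build GRCm38.p6, which held all 10 members.
miR-17-5p: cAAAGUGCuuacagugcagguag
miR-18a-5p: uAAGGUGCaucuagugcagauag
miR-19a-3p: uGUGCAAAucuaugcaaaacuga
miR-20a-5p: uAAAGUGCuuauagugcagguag
miR-19b-3p: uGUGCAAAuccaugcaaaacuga
miR-92a-3p: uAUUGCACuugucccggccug
miR-17-5p and miR-20a-5p share a seed and differ at 2 bases, C1U and C12U, and miR-19a-3p and miR-19b-3p at 1 base, U11C (positions from the 5′ end, first-named miRNA first). All mature members are 21 to 23 nt long and a read spans the whole molecule, so levels (CPM, counts scaled to a common library size with TMM factors) were compared between members without a further length correction.

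In the table the cluster lies on the plus strand of chromosome 14 (mm10), from miR-17-5p at 115043684 to miR-92a-3p at 115044496, a span of 813 nt. In GENCODE M21, on the same assembly, all 10 members lie in exon 2 of Mir17hg. None of the 10 has another listed miRNA antisense to it. Of the 10, 8 have a single genomic place. miR-19b-3p and miR-92a-3p have a second place on the minus strand of chromosome X (52741991 to 52742013 and 52741854 to 52741874), in the paralogous Mir106a to Mir363 cluster. A read that matches more than 1 place seems to be entered once per place, since the row of miR-199a-3p, with 2 places, was 2 times the row of miR-199b-3p in all 6 libraries. Levels of miR-19b-3p and miR-92a-3p are therefore also given per place.

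Whole-table facts are as follows. Total counts ranged from 1226187 to 1795831 in TAC and from 1818725 to 3509001 in sham, so the TAC libraries were shallower. A count of 0 allows up to 3 counts, or 1.81 to 2.82 CPM in TAC and 0.767 to 1.51 CPM in sham, counting error only. The cardiac muscle markers were present, with miR-208a-3p, from an intron of a heart-specific myosin gene, at 261.5 to 308.3 CPM in TAC and 179.1 to 203.0 CPM in sham.

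The members differed in level by several orders of magnitude. miR-92a-3p was far above the rest, with 8634.5 ± 980.2 CPM in TAC and 8707.1 ± 846.6 CPM in sham, or 4317.3 ± 490.1 and 4353.5 ± 423.3 CPM per place (SD, n = 3 each). It held 96.4% to 96.8% of all counts of the cluster in TAC libraries and 97.4% to 97.9% in sham libraries, and 93.5% to 94.2% against 95.2% to 96.0% with counts divided by places. miR-20a-5p, miR-17-5p and miR-19b-3p followed in that order in 6 of 6 libraries, although the values of miR-17-5p and miR-19b-3p overlapped between libraries. miR-19a-3p and miR-17-3p lay at 6.03 to 11 CPM and 2.02 to 11.3 CPM, with no fixed order between them (miR-19a-3p was higher in 4 of 6 libraries), and miR-18a-3p followed at 3.01 to 5.38 CPM. miR-18a-5p, miR-92a-1-5p and miR-20a-3p were at or near the limit of a count of 0, and their order was not resolved. The rows of the cluster thus differed widely in mature level, and the order along the transcript was not the order of the levels. Part of the reads of miR-92a-3p and miR-19b-3p may come from chromosome X. Guide arms with a single place also differed, with means over the 6 libraries from 129.3 CPM (miR-20a-5p) to 1.04 CPM (miR-18a-5p). How evenly each sequence is captured in a library was not tested.

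**Figure D1:**
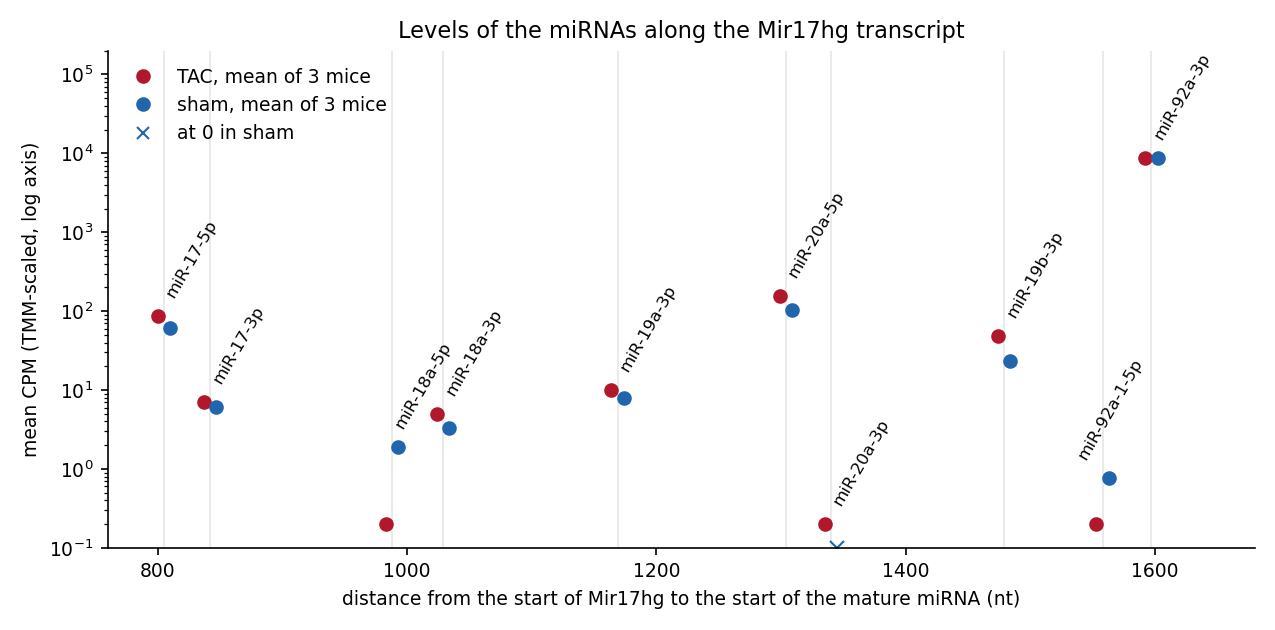
Mean TMM-scaled CPM (log axis) of each mature member in TAC and sham hearts (3 mice each) against the distance from the start of Mir17hg. miR-92a-3p, the last on the transcript, stands at 8634.5 CPM in TAC and 8707.1 CPM in sham, and the cross marks miR-20a-3p, which was at 0 in sham.

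The comparison of TAC with sham asks how the products of the cluster change under a lasting pressure load. miR-19b-3p and miR-20a-5p rose in TAC hearts, none of the tested members fell, and miR-92a-3p, which makes up most of the counts of the cluster, had a log2 fold change of -0.01 ± 0.11 (SE) and did not pass the test. Of the 10 members 6 passed the filter on low counts and were tested, and the other 4 (miR-18a-5p, miR-18a-3p, miR-20a-3p and miR-92a-1-5p) did not pass it. With edgeR's quasi-likelihood test, Benjamini-Hochberg adjusted over 354 tested miRNAs, 2 of the 6 were higher and 0 lower at an adjusted p under 0.05. Of all tested miRNAs 30.5% were called, 19.2% higher and 11.3% lower. At an unadjusted p under 0.05 there were 3 of the 6, against 44.4% of all tested miRNAs. TAC lay above sham without overlap for 3 of the 6, against 29.4% of all tested miRNAs, and 51.4% did not overlap in either direction. The median log2 fold change was 0.42 over the 6 members and 0.07 over all tested miRNAs.

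miR-19b-3p had 50.8, 37.6 and 58.3 CPM in TAC 29, 78 and 81, against 21.0, 28.1 and 21.2 CPM in sham 47, 68 and 69. All 3 TAC hearts lay above all sham hearts. The log2 fold change was 1.07 ± 0.21 (SE), or 2.09-fold, with an edgeR adjusted p = 0.00675. These levels rest on 56 to 84 counts per TAC library and 54 to 82 per sham library, so the raw counts overlapped and the higher level in TAC is relative to the smaller TAC libraries. Since a read with 2 places seems to be entered once per place, fewer reads than counts stand behind them. Per place the means were 24.5 ± 5.23 CPM in TAC and 11.7 ± 2.04 CPM in sham (SD, n = 3 each). With counts divided by places the log2 fold change was 1.01 (edgeR adjusted p = 0.016). The call held in all 17 alternatives, with log2 fold changes of 0.76 to 1.22.

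miR-20a-5p had 152.5, 122.3 and 187.1 CPM in TAC 29, 78 and 81, against 99.0, 111.0 and 103.8 CPM in sham 47, 68 and 69. The groups did not overlap, but TAC 78 lay close to sham 68. The log2 fold change was 0.56 ± 0.18 (edgeR adjusted p = 0.0431), and its call held in 4 of 17 alternatives. It was lost without TAC 29, TAC 81, sham 47, sham 68 or sham 69 (adjusted p = 0.0801 to 0.135). The log2 fold change was then 0.39 without TAC 81 and 0.55 to 0.62 without each of the other 4.

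miR-17-5p, the arm with the same seed, had 85.9, 79.3 and 94.9 CPM in TAC 29, 78 and 81, against 52.2, 68.3 and 64.3 CPM in sham 47, 68 and 69. Here too all TAC values lay above all sham values. Its log2 fold change of 0.50 ± 0.17 missed the threshold (edgeR adjusted p = 0.0529), and it was called in 2 of 17 alternatives, by limma-voom and in the row that merges it with miR-20a-5p.

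miR-92a-3p had 8441.7, 7765.1 and 9696.8 CPM in TAC 29, 78 and 81, against 8175.6, 8262.3 and 9683.4 CPM in sham 47, 68 and 69. The ranges overlapped, and the log2 fold change was -0.01 ± 0.11 (edgeR adjusted p = 0.945). It had 10316 counts or more in every library, not divided by places, and the smallest SE of the 6.

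miR-19a-3p had 10.9, 10.8 and 8.46 CPM in TAC 29, 78 and 81, against 6.91, 6.03 and 11 CPM in sham 47, 68 and 69. Sham 69 was the highest of the 6, and the log2 fold change of 0.35 ± 0.33 did not pass (edgeR adjusted p = 0.422). miR-17-3p, the passenger arm of miR-17, had 7.87, 2.02 and 11.3 CPM in TAC 29, 78 and 81, against 7.67, 4.02 and 6.66 CPM in sham 47, 68 and 69 (log2 fold change 0.09 ± 0.52, edgeR adjusted p = 0.904). Both rows hold few counts, 9 to 28 and 3 to 30 per library, and the value of miR-20a-5p, 0.56, lies within 2 SE of both estimates. The value of miR-19b-3p, 1.07, lies within 2 SE of the estimate for miR-17-3p but beyond it for miR-19a-3p, which shares its seed. This leaves out the SE of miR-19b-3p itself, 0.21. The 2 fold changes were not tested against each other, so a smaller change of miR-19a-3p is not shown.

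**Figure D2:**
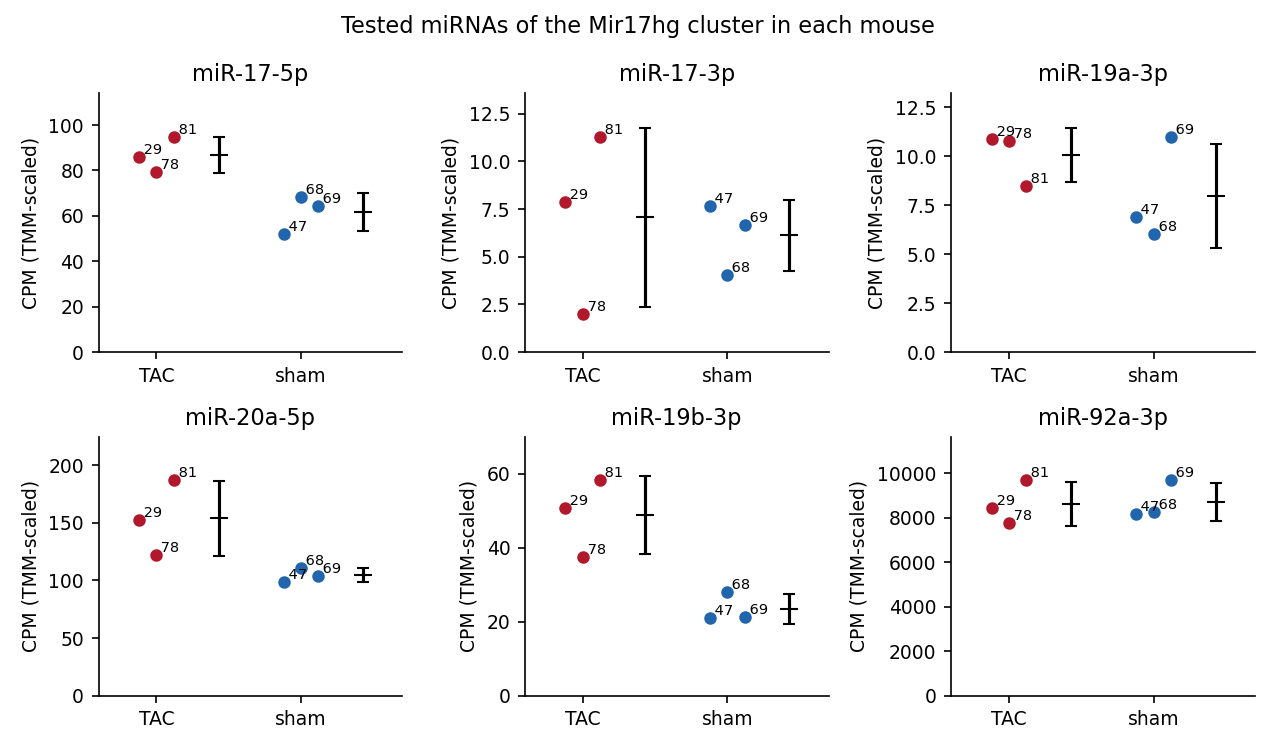
TMM-scaled CPM of the 6 tested members in each mouse (points with animal numbers) with the mean and SD of 3 mice per group (black), TAC left and sham right, axes from 0. miR-19b-3p, miR-20a-5p and miR-17-5p lie higher in every TAC mouse than in any sham mouse, whereas miR-92a-3p, miR-19a-3p and miR-17-3p overlap.

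The ratio of 2 members within a library does not depend on how libraries are scaled. The log2 ratio of miR-20a-5p to miR-17-5p was 0.83, 0.62 and 0.97 in TAC 29, 78 and 81, and 0.92, 0.70 and 0.69 in sham 47, 68 and 69, overlapping, with a difference of 0.04. In linear terms miR-92a-3p had 98.3, 97.9 and 102.1 counts for each count of miR-17-5p in TAC 29, 78 and 81, against 156.7, 121.0 and 150.7 in sham 47, 68 and 69. The 2 groups did not overlap, with a log2 difference of -0.51. For miR-19b-3p the ratio was higher in TAC, with 0.592, 0.475 and 0.614 counts per count of miR-17-5p in TAC and 0.402, 0.412 and 0.329 in sham, a log2 difference of 0.55, again without overlap. miR-19a-3p, which has the same seed as miR-19b-3p, differed by -0.11 with overlapping groups. Of the 5 ratios tested, those of miR-92a-3p, miR-19b-3p and miR-18a-5p reached a two-sided exact permutation p of 0.1, the smallest that 3 against 3 allows (adjusted p = 0.167), and the ratios of miR-20a-5p and miR-19a-3p had exact p = 0.9 and 0.8. This test could not reach 0.05 whatever the values, so it neither calls these differences nor shows that the ratios are alike. By level, 51.4% of all tested miRNAs did not overlap between the groups. How often ratios of other miRNAs do so was not counted.

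**Figure D3:**
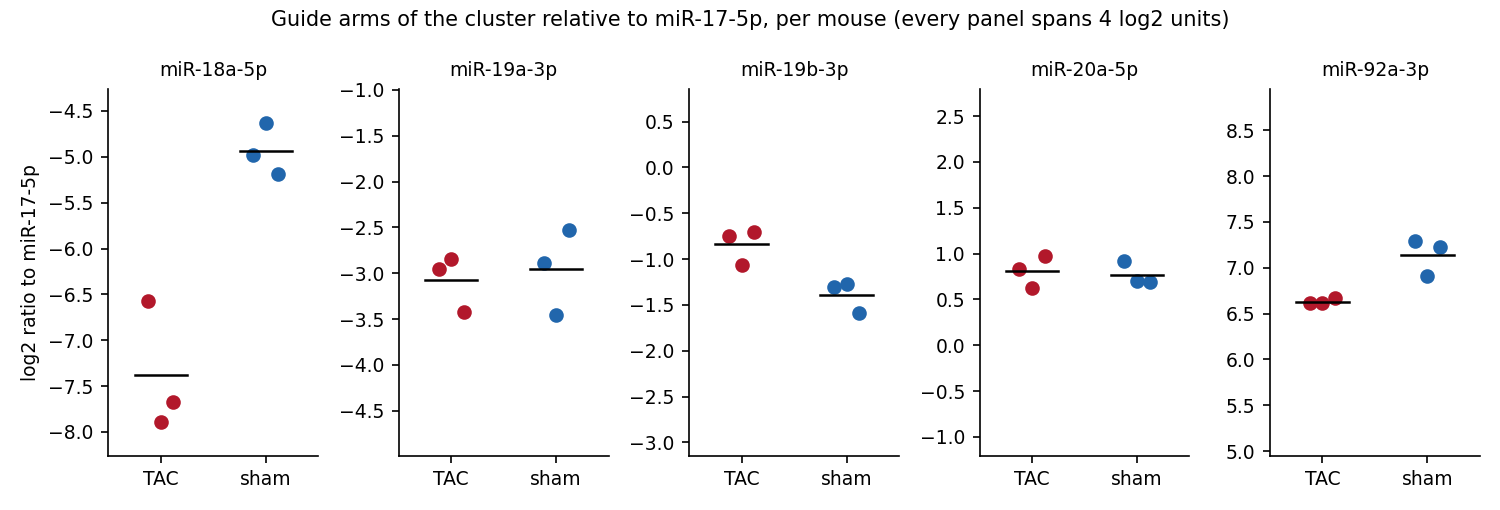
log2 ratio of 5 guide arms to miR-17-5p in each mouse (prior count of 0.5), TAC left and sham right, with group means as lines and every panel spanning the same height. miR-19b-3p is shifted by 0.55 and miR-92a-3p by -0.51 in TAC relative to sham, and miR-20a-5p by 0.04.

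miR-18a, the hairpin between miR-17 and miR-19a, gave few reads. miR-18a-5p had 1, 0 and 0 counts in TAC 29, 78 and 81, against 6, 5 and 4 in sham 47, 68 and 69. Pooled over each group, the rate in TAC was 0.134 times that in sham (95% exact interval 0.00318 to 0.871, counting error only). The other arm, miR-18a-3p, had 8, 8 and 5 counts in the TAC mice and 12, 6 and 10 in the sham mice, a pooled rate 1.51 times that in sham (0.814 to 2.75). In CPM its groups did not overlap, with 4.70 to 5.38 in TAC and 3.01 to 3.92 in sham, but the interval of the rate spans 1. The 5p arm thus made up 4.55% of the reads of this hairpin in TAC and 34.9% in sham. miR-18a-5p differs from miR-18b-5p of chromosome X at 2 bases (A18U and A20U), and miR-18b-5p, with 1, 0 and 0 counts in TAC and 3, 3 and 4 in sham, was low in the same libraries. When all rows were tested without a filter, miR-18a-5p did not pass (edgeR adjusted p = 0.167). With a prior count of 5 in place of 0.5 its log2 ratio to miR-17-5p differed by -0.45 between groups in place of -2.44.

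In the other hairpins with both arms measured, 1 arm was scarce beside the other. miR-20a-3p had 1 count in all 6 libraries together (in TAC 29), beside 1506 of miR-20a-5p. miR-92a-1-5p had 1 count in TAC and 6 in sham. For miR-17 the 5p arm held 92.8% of the reads of the hairpin in TAC and 90.2% in sham. The remaining arms of the cluster, miR-19a-5p and miR-19b-1-5p, had 0 and 1 counts over all libraries.

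The 2 paralogous clusters share seeds with Mir17hg. In the Mir106a to Mir363 cluster on chromosome X, the 10 arms that are not shared with chromosome 14 had 20 counts in TAC and 40 in sham, against 1089 and 1548 counts for the 8 single-place members on chromosome 14. miR-106a-5p, which differs from miR-17-5p at 1 base (U10A), had 4 counts over all libraries beside 865 of miR-17-5p, and miR-20b-5p had 11 beside 1506 of miR-20a-5p. How the reads of miR-19b-3p and miR-92a-3p divide between the chromosomes cannot be told from the counts.

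In the Mir106b to Mir25 cluster on chromosome 5, in an intron of the replication gene Mcm7, 5 of 6 arms were tested, and 1 rose. miR-25-3p, with the seed of miR-92a-3p, had 684.9, 701.7 and 694.6 CPM in TAC 29, 78 and 81, against 467.6, 551.9 and 492.1 CPM in sham 47, 68 and 69 (log2 fold change 0.46 ± 0.10, edgeR adjusted p = 0.0121). miR-106b-5p and miR-93-5p, with the seed of miR-17-5p, had log2 fold changes of 0.48 ± 0.18 and 0.19 ± 0.14 and did not pass (edgeR adjusted p = 0.0664 and 0.307). miR-106b-3p and miR-25-5p had values of -0.21 ± 0.14 and -0.68 ± 0.29 and did not pass either (0.267 and 0.0996).

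**Figure D4:**
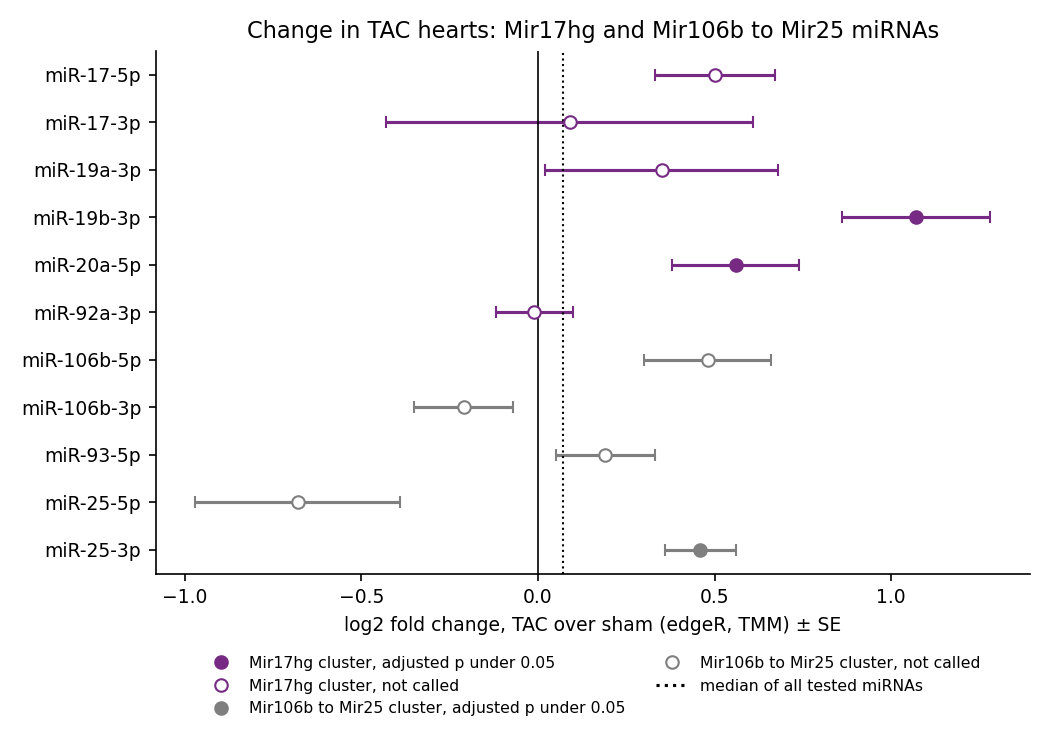
log2 fold change of TAC over sham (edgeR, TMM factors) with its SE for the 6 tested members and the 5 tested arms of the Mir106b to Mir25 cluster. Filled points passed an adjusted p of 0.05 (miR-19b-3p, miR-20a-5p and miR-25-3p), and the dotted line marks the median of all tested miRNAs at 0.07.

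Summed by seed, with all rows of the table that carry it, the classes of the cluster had different levels and different shares held by member rows. The seed GUGCAAA of miR-19, held by no other row with a sequence, summed to 61.7, 48.4 and 66.7 CPM in TAC 29, 78 and 81, against 27.9, 34.2 and 32.1 CPM in sham 47, 68 and 69, without overlap. The seed AAAGUGC of miR-17 and miR-20a summed to 485.9, 414.0 and 532.0 CPM in the TAC mice and 336.4, 377.7 and 389.1 CPM in the sham mice, of which the cluster gave 50.3% in TAC and 45.2% in sham, and miR-93-5p and miR-106b-5p most of the rest. The seed AUUGCAC of miR-92a summed to 9455.7 ± 969.9 CPM in TAC and 9336.8 ± 827.3 CPM in sham (SD, n = 3 each), with 91.2% and 93.2% from miR-92a-3p. Of the rows with this seed outside the 3 clusters 2 were tested: miR-32-5p had a log2 fold change of 0.67 ± 0.23 and miR-92b-3p of -0.20 ± 0.18, and neither passed (edgeR adjusted p = 0.0502 and 0.416). The seed AAGGUGC of miR-18a, also held by miR-18b-5p, summed to 1.21, 0 and 0 CPM in TAC 29, 78 and 81, against 2.30, 4.02 and 3.13 CPM in sham 47, 68 and 69, lower in TAC without overlap. It rests on 1 count of each miRNA in TAC, against 15 of miR-18a-5p and 10 of miR-18b-5p in sham. The rows of miR-19b-3p and miR-92a-3p, with 2 places each, enter the sums and shares undivided, and part of their reads may come from chromosome X. These sums are descriptions and were not tested.

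As a share of all counts, without TMM scaling, the cluster held 0.806%, 0.728% and 0.873% in TAC 29, 78 and 81, against 0.932%, 0.929% and 1.12% in sham 47, 68 and 69. In the smallest library, TAC 81, the 95% Wilson interval of the share was 0.857% to 0.890%, counting error only. It takes all counts as independent reads, whereas reads of miR-92a-3p seem to be entered once per place, so it is too narrow. Without miR-92a-3p the share was 0.0290%, 0.0234% and 0.0316% in TAC and 0.0214%, 0.0246% and 0.0240% in sham, with overlapping groups. That sum is mostly miR-20a-5p, miR-17-5p and miR-19b-3p, and it does not speak for the scarce members. Calls on miR-92a-3p depended on the scaling. With library totals its log2 fold change was -0.32 (edgeR adjusted p = 0.0408, called lower), but that scaling moves the median of all tested miRNAs by -0.31, and relative to that median miR-92a-3p was at -0.09 with library totals and -0.08 with TMM.

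Base composition moved with the fold changes. Among tested miRNAs outside the cluster with a known sequence, the median log2 fold change was 0.43 for 51 miRNAs of under 40% GC, 0.09 for 93 of 40% to under 50%, and -0.19 for 165 of 50% and over. miR-19a-3p, miR-19b-3p and miR-20a-5p have 34.8%, 39.1% and 39.1% GC, miR-17-5p 47.8% and miR-92a-3p 57.1%. After a GC trend was fitted per library and taken out, miR-19b-3p was still called at a log2 fold change of 0.76 (edgeR adjusted p = 0.0217), miR-20a-5p was at 0.25 and not called (0.333), and miR-92a-3p was at 0.08 (0.651). miR-17-5p was at 0.4 and not called (edgeR adjusted p = 0.107). The log2 differences in ratio to miR-17-5p became 0.35 for miR-19b-3p, -0.33 for miR-92a-3p, -0.16 for miR-20a-5p and -0.4 for miR-19a-3p.

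**Figure D5:**
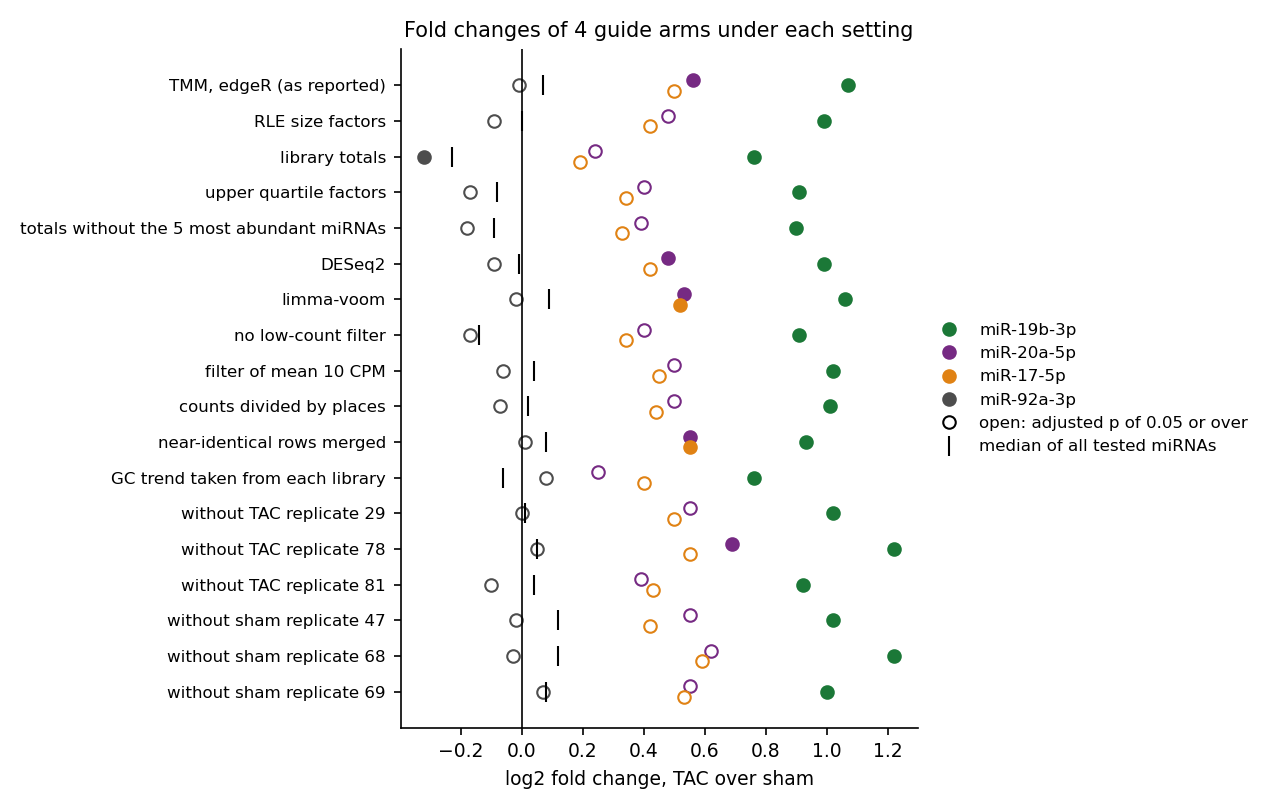
log2 fold change of TAC over sham for 4 guide arms under each setting (rows), filled where the adjusted p was under 0.05, with the median of all tested miRNAs as a black tick. miR-19b-3p is filled in every row, between 0.76 and 1.22, and the other 3 arms lose or gain calls with the setting.

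Cell type markers also differed between the groups, and in bulk tissue fewer cells of a type and less RNA per cell cannot be told apart. Summed cardiac muscle markers lay at 274896.4 to 327601.8 CPM in TAC and 152435.9 to 183978.8 CPM in sham, with 5 of 6 higher and 0 lower. Summed red blood cell markers lay at 1642.0 to 3065.3 CPM in TAC and 1000.9 to 1165.6 CPM in sham (1 of 3 tested markers higher, 0 lower), and summed leukocyte markers at 1509.6 to 1636.5 CPM in TAC and 1117.5 to 1508.6 CPM in sham (2 of 6 higher, 0 lower). Summed smooth muscle markers lay at 59554.7 to 62588.6 CPM in TAC and 34646.4 to 43269.8 CPM in sham, with 3 of 4 higher, and all 5 mesenchymal markers were lower in TAC. Most of each sum is 1 marker: miR-1a-3p (cardiac muscle), miR-451a (red blood cell), miR-146a-5p (leukocyte) and miR-143-3p (smooth muscle). Of these only miR-146a-5p was not called, with means of 1236.9 CPM in TAC and 1074.3 CPM in sham (edgeR adjusted p = 0.263). Both endothelial markers, and miR-142a-3p and miR-486a-5p, had no counts in any library. For all 4 of them the table also lists a miRNA on the other strand of the same place. It also lists 1 for miR-486b-5p, which had 13 counts over all libraries, and 1 for miR-1a-3p, which had 1973819. miR-1a-3p has 2 places, however, so it is not a like case, and the place its reads came from was not tested. Whether a miRNA on the other strand bears on the zeros was not tested, and such a 0 was not read as absence. The part of these cell types in the rise of miR-19b-3p and miR-20a-5p was not tested.

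The miRNAs whose profile over the 6 libraries was nearest to that of a member, out of 341 tested miRNAs outside the 3 clusters and their seeds, differed between members. Nearness is the root mean square difference of log2 CPM, each centred on its own mean. It takes in the difference between the groups, so rows with a like fold change lie near each other whatever their cell of origin. miR-17-5p was nearest to miR-142a-5p (0.0813), an arm made in blood-forming cells, miR-190a-5p (0.0853) and miR-185-5p (0.0871), against a median of 0.389 over all compared miRNAs. Of these only miR-185-5p was called, as higher. miR-19b-3p was nearest to miR-133a-5p (0.0775) and miR-1a-3p (0.156) of muscle and to miR-451a (0.130) of red blood cells, against a median of 0.629. All of these were called higher in TAC, with log2 fold changes of 0.95, 0.86 and 1.15. miR-92a-3p was nearest to miR-181d-5p (0.104), miR-181b-5p (0.113) and miR-34a-5p (0.113), none of which was called.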

How the data were processed

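The deposited table holds raw read counts, as whole numbers, for each mature miRNA in 6 columns, each matched to a mouse by its animal number. The submitters' processing notes list mm10 as the build and HISAT2, StringTie and DESeq2 as tools, but not what each was used for. Trimming, the read counter and use of strand were not given in the sources used here. Mature sequences came from RefSeq (GRCm38.p6), which held 1675 of 1966 rows.

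Counts were tested with edgeR 4.0.16 in R 4.3.3 (quasi-likelihood test on the whole table, filterByExpr by group, TMM factors, Benjamini-Hochberg adjustment, threshold 0.05, without covariates), and log2 fold changes are TAC over sham with their SE. Ratios of members used a prior count of 0.5 and a two-sided exact permutation test in scipy 1.17.1. The 17 alternatives were 4 other scalings, DESeq2 1.42.0, limma-voom (limma 3.58.1), 2 other filters, counts divided by places, merging of rows within 2 mismatches, a GC trend per library (local regression, span 0.75, rows without a sequence left out), and leaving out each mouse. Models were tested on simulated data. The members, lists, tests and alternatives were chosen with earlier results of these data known. The rule for named miRNAs took all members, the other arms of their hairpins, the 2 paralogous clusters (values where tested), rows with a member's guide seed, and the 3 nearest profiles of miR-17-5p, miR-19b-3p and miR-92a-3p. Outside this rule, miR-199a-3p, miR-199b-3p, miR-208a-3p, miR-142a-3p, miR-486a-5p, miR-486b-5p, miR-146a-5p and miR-143-3p were named after their values were seen. The labels give no pairing of mice across groups and no batch.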

Additional observations from a re-analysis of the deposited data

How the results depend on the processing

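Over all 354 tested miRNAs, 68 were higher and 40 lower in TAC. The higher count was 25 with library totals, 41 with upper quartile factors, 43 with totals without the 5 most abundant miRNAs, 42 without a low-count filter and 32 with the GC trend, and the lower count 102, 63, 72 and 65 in the first 4 of these settings. Leaving out 1 mouse gave 44 to 57 higher and 18 to 29 lower, past 1.5 times for higher calls without TAC 78, and for lower calls without each mouse but TAC 29.

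Of the cluster, 2 members were higher, which became 1 (miR-19b-3p) with RLE size factors, library totals, upper quartile factors, totals without the 5 most abundant miRNAs, no low-count filter, a filter of 10 CPM, counts divided by places and the GC trend. It became 3 with limma-voom, which also called miR-17-5p (limma-voom adjusted p = 0.0397), and 4 with near-identical rows merged, where 2 merged rows stand for 4 members. Leaving out 1 mouse left 1 to 2 higher and 0 lower, and 1 member (miR-92a-3p) was lower with library totals. miR-19b-3p alone kept its call in each of the 17 alternatives.

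Values near 0 changed sign: miR-17-3p was at -0.21 with library totals, -0.05 with upper quartile factors, -0.07 without the 5 most abundant miRNAs, -0.15 with limma-voom, -0.06 without a filter and -0.33 to 0.56 with 1 mouse left out. miR-19a-3p was at -0.06 with the GC trend. miR-92a-3p was at 0.01 with merged rows, 0.08 with the GC trend and -0.10 to 0.07 with 1 mouse left out. The log2 ratio to miR-17-5p differed for miR-20a-5p by -0.16 with the GC trend and by -0.05 to 0.13 with 1 mouse left out, for miR-19a-3p by -0.36 to 0.10, for miR-19b-3p by 0.45 to 0.67, for miR-92a-3p by -0.63 to -0.44 and for miR-18a-5p by -2.84 to -2.18. The share of counts held by the 10 members differed by -0.19 percentage points, and by -0.114 with counts divided by places. The difference was 0.00292 for single-place guide arms alone and -0.226 to -0.129 with 1 mouse left out. With 1 mouse left out the log2 arm ratios differed between groups by -0.12 to 0.91 for mir-17, -2.97 to -2.18 for mir-18a, -1.19 to -0.57 for mir-20a and -1.33 to 0.37 for mir-92a-1, and in 5 of 6 libraries the mir-20a value is set by the 5p count alone, since its 3p arm is at 0. The ratio of miR-18a-5p has no value with a prior count of 0. No paired analysis was possible because no animal number is shared between the groups. The cause of these differences was not tested.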
